A study of Mus musculus with 6 samples.

Results

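Leucine, serine and arginine are the 3 amino acids with 6 codons each in the standard genetic code, and their 18 codons are described here in ribosome profiling of the mouse brain. The members are every codon assigned to Leu, Ser or Arg in the deposited tables, 18 of the 64 codons and 18 of the 61 sense codons, and no measured value was used to choose them. The study profiled whole brain homogenates of 3 control mice (WT) and 3 mice in which the phenylalanine tRNA gene tRNA-Phe-1-1 was deleted (tRNA-Phe-1-1-/-), on a C57BL/6N background. The study's animal methods describe male mice matched for age and litter and also mice from different litters. Its reporting summary gives a single age for all of its mice. The sex of these 6 brains is not given separately in the sources used here. None of the members is a Phe codon, so the deleted tRNA is cognate to none of them. The counts of the 3 mice of a genotype were added into a single table, which leaves no spread between animals, no test and no p-value, and every comparison below is one between 2 pooled tables.

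Each of the 3 amino acids is served by separate families of isoacceptor tRNAs, which carry the same amino acid but have different anticodons. A box of 4 codons that share their first bases is read by a tRNA whose anticodon begins with inosine, a modified base that pairs with U, C or A, together with tRNAs that favour the A-ending or the G-ending codon. The other 2 codons lie in a different box and need tRNAs of their own: those with anticodons UAA and CAA for Leu, GCU for Ser, and UCU and CCU for Arg. The Ser boxes share no base at the first and second codon position, so a Ser tRNA of one box cannot read the other.

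The 18 codons are printed 5′ to 3′ with every G in capitals, because the stretch of the reads in which a codon was found went with the place of its G.

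Leu, box of 4, ending in U: cuu
Leu, box of 4, ending in C: cuc
Leu, box of 4, ending in A: cua
Leu, box of 4, ending in G: cuG
Leu, box of 2, ending in A: uua
Leu, box of 2, ending in G: uuG
Ser, box of 4, ending in U: ucu
Ser, box of 4, ending in C: ucc
Ser, box of 4, ending in A: uca
Ser, box of 4, ending in G: ucG
Ser, box of 2, ending in U: aGu
Ser, box of 2, ending in C: aGc
Arg, box of 4, ending in U: cGu
Arg, box of 4, ending in C: cGc
Arg, box of 4, ending in A: cGa
Arg, box of 4, ending in G: cGG
Arg, box of 2, ending in A: aGa
Arg, box of 2, ending in G: aGG

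Thus 7 members had no G, 4 of Leu and 3 of Ser, and 11 had G. Among the 11, the Leu codons CUG and UUG and the Ser codon UCG had their G only at the third position. The 6 Arg codons and the box of 2 of Ser all had G at the second position.

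Ribosome profiling sequences the stretches of mRNA that ribosomes shield from a nuclease. The authors counted read 5′ ends at each of 33 positions, from -30 to 2, relative to the first base of every codon. At position 0 the codon is thus the start of the read, at -14 it covers read bases 15 to 17, and at 2 only its last base lies in the read. Values are shares, a codon's counts as a percentage of those of the 64 codons at that position, and a share over a range of positions is the mean of the shares at those positions. Added over the reading frames, the tables held 1366689 reads for WT and 2045356 for tRNA-Phe-1-1-/-, and single positions held 363910 to 539833 and 536238 to 812424 counts. A count of 3, the floor for calling a codon detected, came to 8.24 and 5.59 per 1000000 counts at the shallowest position. Bases 1 to 17 of the reads held little G, 1.19% on average in WT and 1.47% in tRNA-Phe-1-1-/-, and base 18 held 11.8% and 13.0%. Intervals are 95% intervals for counting error. Those of ratios and of within-amino-acid shares were widened for the repeat counting of a read within a range.

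Together the 18 codons took 22.9% (WT) and 23.2% (tRNA-Phe-1-1-/-) of all counts at position -30, 29.1% and 28.3% at -15, and 27.6% and 26.9% at position 0. Along these positions the makeup of this total changed from codons with and without G to mostly codons without G. At position 2 the members reached 41.2% and 40.5%, almost all of it Ser and Arg codons.

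The codons without G gained share towards the read start. Leu CUC took 2.06% of the counts in WT and 2.16% in tRNA-Phe-1-1-/- at position -30, and its highest shares were 8.90% in WT, at position -3, and 8.08% in tRNA-Phe-1-1-/-, at position -9. Ser UCC took 2.27% and 2.28% at -30 and peaked at position -13 with 9.33% in WT and 8.24% in tRNA-Phe-1-1-/-. At positions -14 to 0 these C-ending codons were the most abundant of their amino acids in both genotypes. The U-ending Ser codon UCU had its highest share at -7, 5.64% and 5.75%, and Leu CUU at position 0, 3.44% and 3.37%. Leu UUA, the only member of a box of 2 without G, lay between 0.367% and 0.810% at positions -30 to -21 in WT and between 0.846% and 1.43% at -14 to 0.

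The codons with G only at the third position were still common at -15, where the G is read base 18, and dropped at -14, where the G is read base 17. Leu CUG, the most used Leu codon of mouse coding sequences, fell from 4.91% at -15 to 0.268% at -14 in WT, an 18.3-fold drop. In tRNA-Phe-1-1-/- it fell from 4.85% to 0.370%, a 13.1-fold drop. Leu UUG fell from 0.852% to 0.0425% in WT and 18.4-fold in tRNA-Phe-1-1-/-, and Ser UCG fell 8.78-fold and 4.18-fold. UCG also stood out 1 base before the step, at -16, with 1.03% in WT and 0.874% in tRNA-Phe-1-1-/-, against 0.237% and 0.252% at -17. Over the step from -15 to -14 the 7 codons without G all rose, so that the share at -15 was 0.663 to 0.903 times that at -14 in WT.

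The codons with G at the second position made the same drop 1 base earlier, between -16 and -15, where the middle base moves from read base 18 to 17. Ser AGC fell from 0.808% to 0.0808% in WT and from 1.06% to 0.0849% in tRNA-Phe-1-1-/-. Over the 8 codons of this kind the drop was 10.0-fold to 26.2-fold in WT and 5.40-fold to 26.2-fold in tRNA-Phe-1-1-/-, with Arg AGG the smallest in the tRNA-Phe-1-1-/- table. The 3 codons with G only at the third position changed by 0.576-fold to 2.51-fold at that step in WT. The step therefore followed the base and not the amino acid: Ser UCG moved with Leu CUG and UUG, and Ser AGU and AGC moved with Arg.

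At position 2, where the middle base of the codon is the base directly before the read, the order turned over. Ser AGC took 15.1% of all counts in WT and 14.5% in tRNA-Phe-1-1-/- there and was the second most frequent of the 64 codons in both. Ser AGU took 6.07% and 6.80%, Arg AGA 6.35% and 6.05%, Arg CGC 5.06% and 4.78%, Arg CGA 3.68% and 3.65%, and Arg CGU 2.55% and 2.48%. All 6 had a G before the read and none within it. Arg CGG and AGG, which would put a second G at read base 1, took only 0.0436% and 0.0724% in WT and 0.0393% and 0.0349% in tRNA-Phe-1-1-/-. AGA and AGG, which make up one box, thus lay at opposite ends of the Arg codons at this position in tRNA-Phe-1-1-/-.

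For Ser, the division between the boxes moved with these steps. Ser codons of the box of 2 made up 40.0% of Ser counts at position -30 in WT (95% interval 39.6 to 40.5) and 39.4% in tRNA-Phe-1-1-/- (39.0 to 39.8), close to the 38.6% of Ser codons in mouse coding sequences. Their share was 8.57% and 11.6% at -16, 0.744% and 0.898% at -15, and 0.128% and 0.431% at position 0. At position 2 it was 98.1% and 97.6%. The same 2 codons were thus nearly absent from Ser counts at the read start and nearly all of them 2 bases away.

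Leu is divided otherwise, since each of its boxes holds codons with and without G. The box of 2 made up 17.6% of Leu counts at -30 in WT and 18.3% in tRNA-Phe-1-1-/-, and 11.3% and 10.2% at position 0. Within the box, UUG was the more frequent codon at positions -30 to -21, with 10.8% of Leu counts in WT against 5.85% for UUA. At -14 to 0 the order was reversed, 0.406% for UUG against 8.63% for UUA. CUG went from 35.3% of Leu counts at -30 to -21 to 1.84% at -14 to 0, and CUC from 24.4% to 57.0%. Leu counts within the first 17 bases therefore came largely from the codons without G.

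For Arg, where all 6 codons have G at the second position, the boxes were divided more evenly. The box of 2 made up 49.5% of Arg counts at -30 in WT and 48.7% in tRNA-Phe-1-1-/-, against 45.7% of Arg codons in coding sequences. At -14 to 0 it was 35.0% (33.5 to 36.6) and 37.2% (36.0 to 38.3). Arg as a whole fell from 4.64% of all WT counts at -30 to -21 to 0.268% at -14 to 0, while Ser rose from 10.9% to 15.3% and Leu from 9.54% to 12.8%. In coding sequences these amino acids make up 5.50%, 8.52% and 10.1% of codons. Arg values within the first 17 bases thus rest on 18113 WT counts and 33849 tRNA-Phe-1-1-/- counts, against 1037784 and 1504232 for Ser.

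At positions -30 to -21 the order of the 18 codons followed their use in coding sequences, with a Spearman rank correlation of 0.94 over the 18 codons in each genotype. The codons share libraries and base composition, so this is a description. At -14 to 0 it was 0.53 in WT and 0.49 in tRNA-Phe-1-1-/-. Over the 7 codons without G alone it was 0.93 and 0.96 there. Relative to coding sequences, the WT share of UCC at -14 to 0 was 4.11 times its use and that of CUC 3.78 times, while CUG stood at 0.0606 times and AGC at 0.028 times.

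The codons without G can also be set beside the stretches of coding sequence that could give such reads. In mouse coding sequences, 79795 stretches of at least 17 bases without G directly follow a G, and at -14 to 0 their Leu codons were CUC in 42.9%, CUU in 27.0%, CUA in 14.1% and UUA in the remainder, not weighted by expression. In the reads CUC made up more than this, 57.0% of Leu counts in WT and 54.6% in tRNA-Phe-1-1-/-, and UUA less, 8.63% and 9.17%. CUU made up 21.5% and 22.0%, and CUA 10.6% and 11.2%. Among the Ser codons of these stretches UCC made up 41.3% and UCA 25.0%. In the reads UCC again made up more, 48.1% and 45.6% of Ser counts, and UCA less, 19.7% and 21.2%. The C-ending codons of both amino acids were thus above and the A-ending codons below their part of such stretches, and in each of these cases the tRNA-Phe-1-1-/- value was the nearer one.

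The comparison of the genotypes asks whether codons of amino acids other than Phe changed in occupancy when tRNA-Phe-1-1 was lost. Over positions -20 to 0 the log2 ratio of shares, tRNA-Phe-1-1-/- over WT, was above 0 for 15 of the 18 codons, beside 86.9% of all 61 sense codons. The interval lay above 0 for 12 members, beside 70.5% of sense codons, and below 0 for 3 members, beside 13.1%. The median over the members was 0.07 and over all sense codons 0.09. The number of members on each side was thus near that of the other codons, and 2 of the 3 lower ones were Ser codons.

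Ser held both the highest and the lowest ratio of the members. AGC took 0.383% of the counts in WT and 0.449% in tRNA-Phe-1-1-/-, a log2 ratio of 0.23 (95% interval 0.18 to 0.28) and the highest of the 61 sense codons. Its partner AGU, read by the same tRNA, took 0.203% and 0.226%, a ratio of 0.15 (0.08 to 0.22). In the other box, UCC took 6.55% in WT and 6.03% in tRNA-Phe-1-1-/-, a ratio of -0.12 (-0.13 to -0.11), with the higher share in WT at 20 of 21 positions and overlapping intervals at 1. UCU was slightly lower in tRNA-Phe-1-1-/-, 4.35% in WT and 4.30%, a ratio of -0.02 (-0.03 to -0.004). UCA was slightly higher, 2.98% and 3.06%, a ratio of 0.04 (0.02 to 0.05), and UCG took 0.164% and 0.177%, a ratio of 0.11 (0.03 to 0.19). The falls were those of the 2 most abundant Ser codons and the rises those of the rarer 4.

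For the Leu codons the ratios lay closer together. UUA took 1.01% in WT and 1.06% in tRNA-Phe-1-1-/-, a ratio of 0.07 (0.04 to 0.10), and UUG 0.239% and 0.254%, a ratio of 0.09 (0.03 to 0.15). In the box of 4, CUA took 1.29% and 1.35%, a ratio of 0.07 (0.04 to 0.09), and CUG 1.33% and 1.39%, a ratio of 0.06 (0.04 to 0.09). CUC was the only Leu codon below 0, with 6.30% and 6.02%, a ratio of -0.07 (-0.08 to -0.05), and CUU, with 2.54% and 2.57%, had an interval that included 0 (-0.003 to 0.04).

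All 6 Arg codons had a ratio above 0, from 0.03 to 0.17, but with in-frame positions alone the box of 4 turned below 0, with -0.04 for CGU, -0.10 for CGG, -0.10 for CGC and -0.12 for CGA. The box of 4 gave the widest range. CGG took 0.205% in WT and 0.231% in tRNA-Phe-1-1-/-, a ratio of 0.17 (0.10 to 0.24), and CGU 0.0821% and 0.0917%, a ratio of 0.16 (0.05 to 0.27). CGC, with 0.192% and 0.196%, and CGA, with 0.112% and 0.116%, had intervals that included 0 (-0.05 to 0.10 and -0.05 to 0.14). In the box of 2, AGA took 0.178% and 0.196%, a ratio of 0.13 (0.06 to 0.21), and AGG 0.180% and 0.196%, a ratio of 0.12 (0.04 to 0.19). The intervals of the Arg boxes overlapped, with ratios of 0.13 (0.07 to 0.18) for the box of 2 and 0.10 (0.06 to 0.14) for the box of 4.

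The G content of the reads moved with these ratios. All 11 members with G had a ratio above 0, with a median of 0.12, and so had all 24 of the other sense codons with G, with a median of 0.11. Of the 7 members without G, 4 were above 0, with a median of 0.02, beside 14 of the 19 other sense codons without G, with a median of 0.04. When each codon was counted as a share of the codons of its own kind, the ratio of Arg as a whole changed from 0.11 to -0.009. The kinds were codons with G and codons without G. On this scale 9 members were above 0, a count not made over all sense codons. On that scale the ratio of AGC was 0.28.

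Within the first 17 bases, at positions -14 to 0, the ratios of the codons with G were larger and rested on few counts. The interval lay above 0 for 13 members, beside 77.0% of sense codons, and below 0 for 3, beside 13.1%. AGC again had the highest ratio of the 61 sense codons, 0.67 (0.55 to 0.80), with 0.0549% of the counts in WT and 0.0876% in tRNA-Phe-1-1-/-. UCG had a ratio of 0.49 (0.35 to 0.63), AGG of 0.48 (0.35 to 0.61) and CUG of 0.48 (0.42 to 0.54). The lowest were Arg CGC, 0.09 (-0.06 to 0.23), Ser AGU, and Arg CGU, 0.17 (-0.05 to 0.40), and the intervals of both Arg codons included 0. Over the 11 members with G the median was 0.28, and over the 24 other sense codons with G it was 0.30. AGC stood higher than AGU there, which had a ratio of 0.16 (0.004 to 0.32), and the difference between the codons of this single tRNA was 0.51 (0.31 to 0.71). At single positions of this range AGC was not always higher in tRNA-Phe-1-1-/-: the intervals were apart in that direction at 11 of 15 positions and in the other direction at 1, -11, with 0.0794% in WT and 0.0601% in tRNA-Phe-1-1-/-.

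Most of the AGC difference did not come from that range. Of the difference in its summed share over -20 to 0, 35.4% lay at -14 to 0, where it had 10.2% of its WT share, and the rest at -20 to -15, where the G still lies mostly outside the first 17 bases. For AGU 14.8% of the difference lay at -14 to 0. For the codons that fell most, 81.2% of the difference of UCC and 85.3% of that of CUC lay at -14 to 0. These parts were near those of their WT share in that range, 80.4% for UCC and 83.2% for CUC. The log2 ratio of UCC was -0.11 at -20 to -15 and -0.12 at -14 to 0, and that of CUC -0.06 and -0.07. CUU and UCA were higher in tRNA-Phe-1-1-/- at -14 to 0 and lower at -20 to -15, with summed differences of 0.887 and -0.241 percentage points for CUU and of 1.90 and -0.304 for UCA.

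Farther from the read start, at positions -30 to -21, where G is common in the reads, the picture was more balanced. The interval lay above 0 for 5 members, beside 31.1% of sense codons, and below 0 for 4 members, beside 24.6%, and the median over the members was -0.01. UUA had the highest ratio of all 61 sense codons there, 0.19 (0.14 to 0.23), with 0.561% in WT and 0.638% in tRNA-Phe-1-1-/-, and was higher at 7 of 10 positions. CUU had a ratio of 0.06 (0.03 to 0.09), UUG 0.05 (0.02 to 0.09), AGG 0.05 (0.01 to 0.08) and AGC 0.03 (0.005 to 0.05). Lower in tRNA-Phe-1-1-/- were Leu CUC with a ratio of -0.03, Leu CUA with -0.06, Ser UCC with -0.05 and Arg CGG with -0.07. Of these 9 codons, CUA and CGG had a ratio on the other side of 0 at -20 to 0.

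The share of the box of 2 was higher in tRNA-Phe-1-1-/- for each amino acid over the ranges -30 to -21, -20 to 0 and -14 to 0. For Leu it made up 9.87% of Leu counts at -20 to 0 in WT and 10.4% in tRNA-Phe-1-1-/-, a difference of 0.58 percentage points (0.40 to 0.77), and at -30 to -21 it was 16.6% and 17.5%, a difference of 0.89 (0.60 to 1.18). The intervals were apart in this direction at 22 of 33 positions and in the other at 4, so the Leu division moved the same way inside and outside the first 17 bases. For Ser the box of 2 made up 4.02% and 4.74% at -20 to 0, a difference of 0.71 (0.60 to 0.83), and 30.5% and 31.1% at -30 to -21, a difference of 0.58 (0.25 to 0.92). The Ser intervals were apart in this direction at 16 positions of -20 to 0 and in the other at 1. At -30 to -21 the positions were split, 5 in this direction and 4 in the other. The division of the Ser boxes goes largely with G content, and the effects of box and G content were not separated. For Arg it made up 37.7% and 38.1% at -20 to 0, a difference of 0.37 whose interval included 0 (-0.70 to 1.43). At -30 to -21 the Arg shares were 44.1% and 44.9%, a difference of 0.81 (0.26 to 1.37), and at -14 to 0 the difference was 2.17 (0.24 to 4.11). At -20 to -15 it was -0.04 (-0.68 to 0.60). The Arg intervals were apart at 7 positions in each direction over -20 to 0, and at 5 and 4 over -14 to 0. Over -30 to -21 they were apart at 5 and 1. The Arg division thus did not move one way along the positions.

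Summed over its 6 codons, Leu took 12.7% of the counts in WT and 12.6% in tRNA-Phe-1-1-/- at -20 to 0, a log2 ratio of -0.008 (-0.02 to 0.001). Ser took 14.6% and 14.2%, a ratio of -0.04 (-0.05 to -0.03), and Arg 0.950% and 1.03%, a ratio of 0.11 (0.08 to 0.14). For Leu and Ser these sums combined boxes that moved apart. The ratio was 0.07 (0.04 to 0.10) for the box of 2 of Leu and -0.02 (-0.03 to -0.007) for its box of 4, and 0.20 (0.16 to 0.24) and -0.05 (-0.06 to -0.04) for those of Ser. Both codons of the box of 2 of Ser have G, and in its box of 4 only UCG has G. UCG rose too, with a ratio of 0.11, so box and G content were not separated for Ser. In the box of 4 of Leu, CUA and CUG rose, with ratios of 0.07 and 0.06, and CUC fell.

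In a box of 4 the U-ending and the C-ending codon are read by the same inosine tRNA, and in the box of 2 of Ser both are read by 1 tRNA without inosine. In the 3 boxes of 4 the ratio was higher for the codon ending in U. The difference between the log2 ratios at -20 to 0 was 0.08 (0.06 to 0.11) for CUU and CUC of Leu, 0.10 (0.08 to 0.12) for UCU and UCC of Ser, and 0.13 (0.002 to 0.26) for CGU and CGC of Arg. For AGU and AGC of Ser it was -0.08, with an interval that included 0 (-0.16 to 0.008). At -14 to 0 the difference for CGU and CGC was 0.09, with an interval that included 0 (-0.17 to 0.35). A higher ratio for the U-ending codon was not limited to boxes of 4. At -20 to 0 CAU of His had an interval above 0 and CAC of His had one below. Whether the pattern goes with inosine was not tested.

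When the read 5′ end is at -17, -14 or -11, the fivepseq convention takes the codon to lie in the A site, where the tRNA is selected, the P site or the E site of the ribosome. The read starts went with the place of G, and whether these positions mark those sites in these reads was not tested. At the A site position the intervals were apart with a higher share in tRNA-Phe-1-1-/- for 6 members, beside 45.9% of sense codons, and with a higher share in WT for 5, beside 24.6%. The 6 were the Leu codons CUU and CUA, the Ser codons AGU and AGC, and the Arg codons CGC and CGA. The 5 were the Leu codons UUG, CUC and CUG, the Ser codon UCC and the Arg codon AGA. UCC had 5.11% in WT and 4.41% in tRNA-Phe-1-1-/- there, a log2 ratio of -0.21, and CGA 0.302% and 0.381%, a ratio of 0.33. At the P site position 13 members were higher in tRNA-Phe-1-1-/-, beside 65.6% of sense codons, and 2 were lower, CUC and UCC, beside 16.4%. At the E site position 10 were higher, beside 59.0%, and 3 were lower, Leu CUC with Ser UCC and AGC, beside 16.4%. The A site position differs from the others in that it places every codon beyond read base 17, and the P and E site positions place every codon within it.

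Of the members, 6 share all but 1 base with a Phe codon: UUA and UUG of Leu with both UUU and UUC, CUU of Leu and UCU of Ser with UUU, and CUC of Leu and UCC of Ser with UUC. At -20 to 0 the pair with both Phe codons as neighbours had ratios of 0.07 and 0.09, the neighbours of UUU had 0.02 and -0.02, and the neighbours of UUC had -0.07 and -0.12. The 3 members whose interval lay below 0 were among these 6, and all 3 have no G. Of the 6, UUA and UUG had an interval above 0. Of the 8 sense codons outside Leu, Ser and Arg that also lie 1 base from UUU or UUC, 6 had an interval above 0 and 0 had one below. The 6 were UGU, UGC, GUU and GUC, which have G, and AUU and UAU, which have none. AUC and UAC, also without G, had intervals that included 0. Among the 45 sense codons that are neither Phe codons nor neighbours, 34 had an interval above 0 and 5 had one below. Nearness to a Phe codon was not separated from G content.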

How the data were processed

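Ribosome profiling libraries of 6 brains, 3 WT and 3 tRNA-Phe-1-1-/-, were summed per genotype by the authors, who trimmed adaptors (Trim Galore, cutadapt), removed reads of non-coding transcripts with Bowtie2 2.4.5, aligned the rest to GRCm39 with STAR and counted 5′ ends around codons with fivepseq. The deposited tables hold whole-number counts, not normalized, of 64 codons at 33 positions. No columns of other samples were present (0), and values of single mice were not analysed here. The nuclease, and whether fivepseq scaled down very high counts, are not given in the sources used here.

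Each count was divided by the 64-codon sum at its position, and shares were averaged over positions. Single shares carry Wilson intervals. For ranges, standard errors of log2 ratios and of box shares were multiplied by the square root of the number of positions of one reading frame in the range (7 for -20 to 0), since a read can be counted at each. All intervals cover counting error only, since the mice of a genotype were added together. The study's profiling methods describe no removal of PCR copies. The A, P and E sites follow the fivepseq convention. Codon use came from 21540 canonical coding sequences of the GENCODE mouse annotation of GRCm39, unweighted by expression.

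All 18 codons are named, by rule. The codons were taken by amino acid label and not by a measured value. Earlier results of these data were known when the codons, ranges and alternatives were chosen. The log2 ratios and their intervals were tested on simulated counts with the same codon makeup at every position, unlike these reads. Box shares and intervals of single shares were not tested in this way. Calculations used Python 3.11.15, numpy 2.4.6, scipy 1.17.1 and pandas 2.3.3.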

Additional observations from a re-analysis of the deposited data

How the results depend on the processing

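No paired analysis was possible because each genotype's mice were added into 1 table, and for the same reason no mouse could be left out. Of 207 alternative values of ratios and box shares, 110 lay within the interval of the reported value and 97 outside it. The sign changed for 34, of which 22 belong to values whose interval excludes 0. With the counts as deposited, which carry the greater depth of the tRNA-Phe-1-1-/- table, the log2 ratio was 0.57 for Leu, 0.54 for Ser, 0.69 for Arg, 0.52 for CUC, 0.56 for UCU and 0.46 for UCC. With shares among codons of the same kind, with G or without G, it was 0.016 for Leu, 0.0099 for Ser, -0.0094 for Arg, -0.0026 for UUG, -0.046 for AGU, -0.068 for CGU and -0.023 for AGA, and 9 members were above 0. Over every position it was -0.031 for Ser, 0.0085 for Arg and -0.0012 for AGA. At -30 to -21 it was 0.015 for Leu, -0.016 for Ser, -0.011 for Arg, -0.061 for CUA, -0.0033 for CUG, -0.00077 for UCA and -0.047 for UCG. For AGU it was -0.015, for CGG -0.071 and for AGA -0.010. In that range 6 members were above 0, beside 49.2% of sense codons. The box of 2 differed there by 0.89 points for Leu and 0.58 for Ser. At -14 to 0 Arg reached 0.30, and the box of 2 differed by 0.28 points for Ser and 2.17 for Arg. With in-frame positions only, the ratio was -0.053 for Ser, 0.064 for Arg, -0.0028 for UCA, -0.037 for CGU, -0.10 for CGG, -0.10 for CGC and -0.12 for CGA. There 9 members were above 0, and the box of 2 differed by 0.53 points for Ser and 7.01 for Arg. For in-frame positions and for shares among codons of the same kind, the count above 0 was not made over all sense codons. The mean of the ratios at single positions was 0.25 for Arg. Apart from the depth, the cause of these changes was not tested. The Arg results and those of AGU depend on the range and the scale, while CUC and UCC were lower in tRNA-Phe-1-1-/- under every alternative but the counts as deposited. Depth limits the codons with G within the first 17 bases most, and the lack of separate mice limits every comparison.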
